A study of Homo sapiens with 3 samples.

Results

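The 39 genes described here are interferon-stimulated genes, taken from a fixed list of symbols. A gene's reading is that of its brightest probe set, by mean log2 signal over the arrays, among probe sets annotated to that symbol alone. Of the 39 genes, 38 had such a probe set. STAT2 (a partner of IRF9 in the interferon-activated transcription factor) was not analysed here. In all, 19775 genes were represented in this way.

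Total RNA of HepG2 cultures (so labelled; HepG2 derives from a human liver tumour) was measured on 3 expression arrays, with 1 array per group. All cultures were grown in DMEM with fetal bovine serum and were stably transfected. They carried a vector with the open reading frame of Hsp27 (the array labelled ORF, titled IRES2-HSP27), an Hsp27 shRNA vector (the array labelled shRNA, titled HSP27-SiRNA) or a control vector (the array labelled control, titled EGFP-NC). The promoters of the vectors, and whether each line is 1 clone or a pool, are not stated in these sources. With 1 array per group no difference below has a replicate check, so values describe these arrays and not the conditions.

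Interferons are secreted proteins that bind receptors at the cell surface and, through the JAK kinases, activate a transcription factor complex that holds STAT2 and IRF9. That complex binds the interferon-stimulated response element in the promoters of genes whose products restrict viruses. Some of these genes are also switched on without secreted interferon, by IRF3, IRF1 or NF-kB. In liver cells the response is known for its part in defence against hepatitis viruses.

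The response element was searched as GAAANNGAAA on both strands in RefSeq promoter windows of assembly GRCh38.p14 that run from 250 bases before to 50 bases after each gene's start. It was found in 20 of the 31 members with a window in the table (64.5%), against 996 of 27305 promoters of the whole table (3.65%). The list was drawn up of genes known to answer interferon, so this share describes the list and is no evidence about the arrays. The gamma-activated site, TTCNNNGAA, was found in 9 members (29% against 7.88% of all promoters), and the kappaB motif in 7 (22.6% against 5.72%). The bases before the start are shown for the 4 members with the highest ratio of shRNA to control among those holding the response element, with its matches in capitals. No match of the response element in these 4 windows overlapped a gamma-activated site or a kappaB motif. The first base of the match lay 116 and 103 bases before the start in IFIT1 (chr10:89392373-89392622, + strand), 156 and 122 bases in IFIT3 (chr10:89327747-89327996, + strand), 18 bases in IFI44 (chr1:78649539-78649788, + strand) and 221 bases in CXCL10 (chr4:76023498-76023747, − strand). The CXCL10 window also held 2 kappaB motifs.
IFIT1: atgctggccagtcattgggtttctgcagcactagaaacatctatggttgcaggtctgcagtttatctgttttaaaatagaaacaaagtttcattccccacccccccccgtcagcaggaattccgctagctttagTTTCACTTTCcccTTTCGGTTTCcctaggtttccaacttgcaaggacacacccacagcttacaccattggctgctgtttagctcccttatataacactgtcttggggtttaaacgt
IFIT3: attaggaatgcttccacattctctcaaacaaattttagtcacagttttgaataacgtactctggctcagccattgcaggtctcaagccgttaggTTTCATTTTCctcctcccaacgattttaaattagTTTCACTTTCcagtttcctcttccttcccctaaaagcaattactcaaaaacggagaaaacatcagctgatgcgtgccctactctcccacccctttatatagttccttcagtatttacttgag
IFI44: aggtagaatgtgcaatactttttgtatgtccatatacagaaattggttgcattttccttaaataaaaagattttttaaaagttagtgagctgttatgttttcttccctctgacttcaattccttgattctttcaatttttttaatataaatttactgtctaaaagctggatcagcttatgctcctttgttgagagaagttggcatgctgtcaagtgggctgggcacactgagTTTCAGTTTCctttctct
CXCL10: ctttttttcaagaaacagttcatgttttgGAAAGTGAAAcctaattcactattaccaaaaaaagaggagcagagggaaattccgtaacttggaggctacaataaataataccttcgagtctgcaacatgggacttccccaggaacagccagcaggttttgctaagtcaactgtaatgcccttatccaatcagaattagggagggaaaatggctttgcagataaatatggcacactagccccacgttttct

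Before the members' values, 4 checks of the arrays bear on how they are read. HSPB1, the gene for Hsp27, had log2 signals of 13.11 with the ORF label, 13.03 with the shRNA label and 13.25 with the control label. The control array was thus highest, which goes against the label of the ORF array. The shRNA array was lowest, as its label implies, but the drop below control was small (log2 ratio −0.22). No array therefore showed a large change of this RNA in the direction of its label. Of 18 measured hepatocyte markers, 2 (HPX and TF) had a mean above the pooled median of all probe sets, so the defining markers of the labelled line were largely absent. Of 14 leukocyte markers 1, CD79A, did, and their summed linear signal was 487.2 on ORF, 431.0 on shRNA and 369.0 on control. None was at 0, and PTPRC, the general leukocyte marker, was at most 4.18 on any array. Of 12 fibroblast and stellate cell markers 7 did (summed signal 10692.8, 13253.2 and 12800.0), and of 6 endothelial markers 2 did (210.6, 338.7 and 246.9). Of 6 epithelial markers 4 did (29145.1, 30296.5 and 36342.7). For ACTB, the signal at the 3′ end over that at the 5′ end, a sign of RNA integrity, was 2.40 on ORF, 2.23 on shRNA and 2.70 on control, and for GAPDH it was 0.94, 0.90 and 0.93. The part of these values in the differences below was not tested.

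A floor was placed at the pooled median of the probe sets, a log2 signal of 5.93 (linear signal 60.8), and weaker signals were raised to it before any ratio. Of the 38 members, 31 exceeded the floor on at least 1 array. The 7 others were below it on all 3 arrays, with log2 signals from 1.69 to 5.74, and give no ratio. They are MX1 (a GTPase that blocks influenza viruses), RSAD2 (viperin), its chromosomal neighbour CMPK2, OAS2, IFI27, XAF1 and TRIM22. Several of these are among the genes most used as signs of an interferon response. MX1 read 4.13 on ORF, 5.51 on shRNA and 3.74 on control, and RSAD2 read 3.68, 5.74 and 4.62. In both the shRNA array was highest in the probe set used, as it was for OAS2, but every value lay below the floor. CMPK2 (4.87, 1.69 and 4.55), XAF1 and TRIM22 were highest on ORF, and IFI27 was highest on control. A further RSAD2 probe set was also highest on ORF, with 5.10, 4.55 and 2.51. In bulk RNA, fewer expressing cells and less RNA per cell cannot be told apart, for these and all other members.

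**Figure D1:**
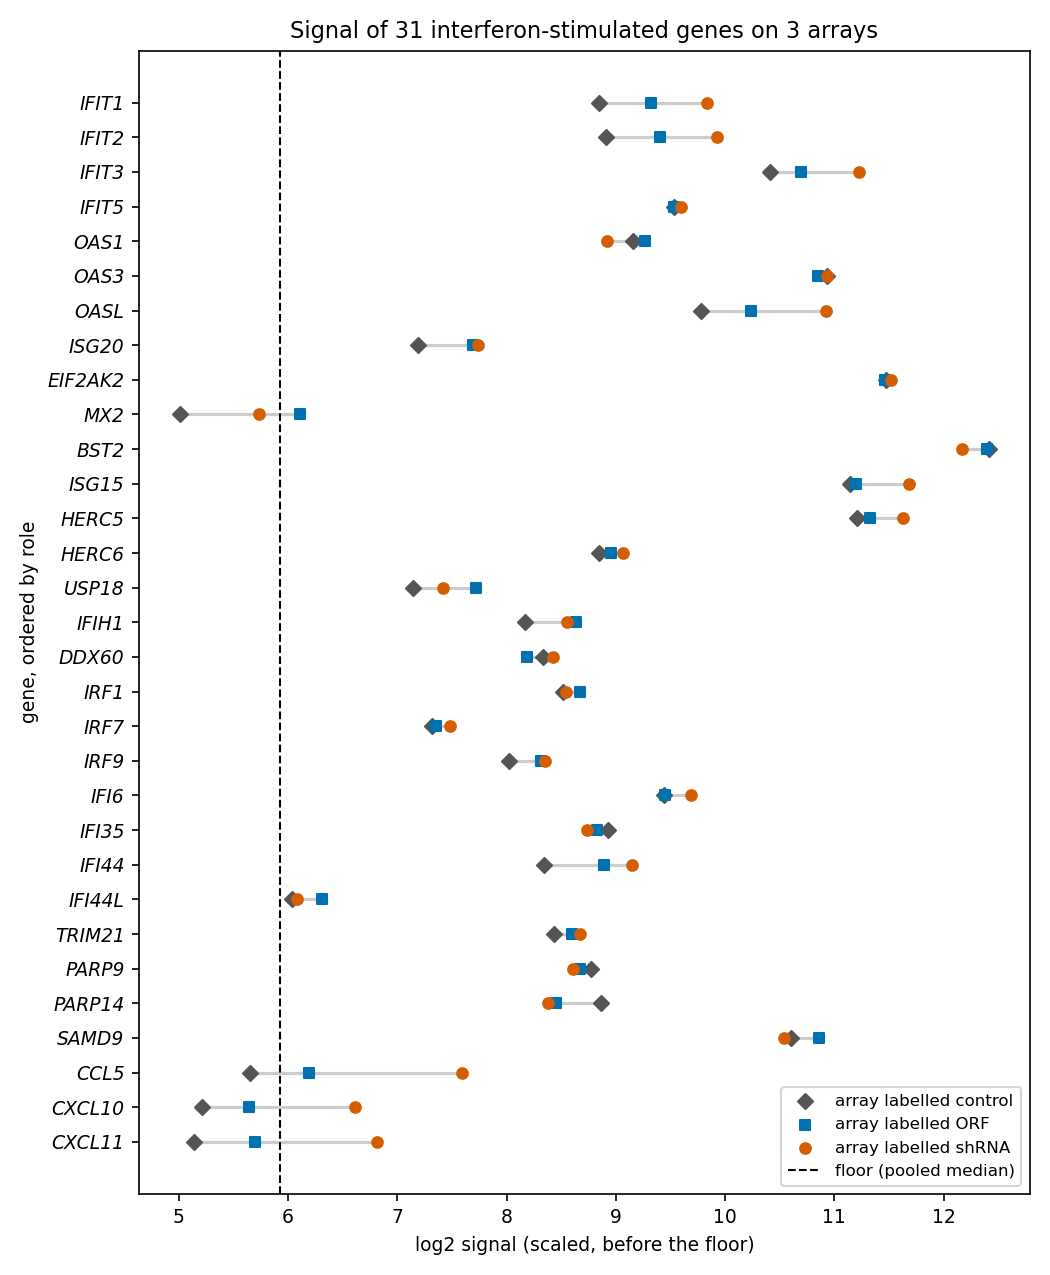
Log2 signal (x axis, scaled, before the floor) of the 31 members above the floor on at least 1 array (y axis, ordered by role) on the arrays labelled ORF (squares), shRNA (circles) and control (diamonds), 1 array each. The dashed line is the floor of 5.93. The shRNA circle lies to the right of both other points for IFIT1, IFIT2, IFIT3, OASL, IFI44, CCL5, CXCL10 and CXCL11, all past 1.5-fold over control. It also does so for further members that stayed under 1.5-fold over control, such as ISG15, HERC5, IFI6 and TRIM21. Positions of different genes are not comparable, because probe sets differ in brightness.

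Set against the control array, the array labelled shRNA had higher signals for a group of members and lower signals past 1.5-fold for none. Of the 31 members, 8 were higher by 1.5-fold or more and 0 were lower by as much, where 3.59% of all 12664 genes above the floor were higher and 3.3% lower. The 8 were IFIT1, IFIT2, IFIT3, OASL, IFI44, CCL5, CXCL10 and CXCL11. The median log2 ratio of the members was 0.23, with quartiles of 0.02 and 0.62, while all genes had a median of −0.01. Members had a ratio above 0 in 24 of 31 cases (77.4%), against 47.2% of all genes. The members were dimmer than all genes above the floor, with a median of mean log2 signals of 8.79 against 9.45. Dim probe sets were noisier, as given below, and the shares among genes of like signal were not computed.

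The array labelled ORF differed less from control. No member reached 1.5-fold in either direction, where 3.04% of all genes were higher and 2.82% lower. The median of the members was 0.12 (quartiles 0 and 0.29) against 0 for all genes, and 22 of 31 were above 0 (71.0%, against 48.3% of all genes). The highest ratio was that of USP18, at 0.58, just under the 1.5-fold line.

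Directly compared, ORF against shRNA gave 4 members at least 1.5-fold lower and 0 higher, where 2.68% of all genes were lower and 2.64% higher. The 4 were OASL, CCL5, CXCL10 and CXCL11. The median was −0.08 (quartiles −0.40 and 0.08), and 20 of 31 members were below 0. Scaling to equal medians above the floor moved all genes towards shRNA, with 446 lower and 259 higher in place of 340 and 334. These 3 comparisons use each array in 2 of them, so they are not independent of one another.

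**Figure D2:**
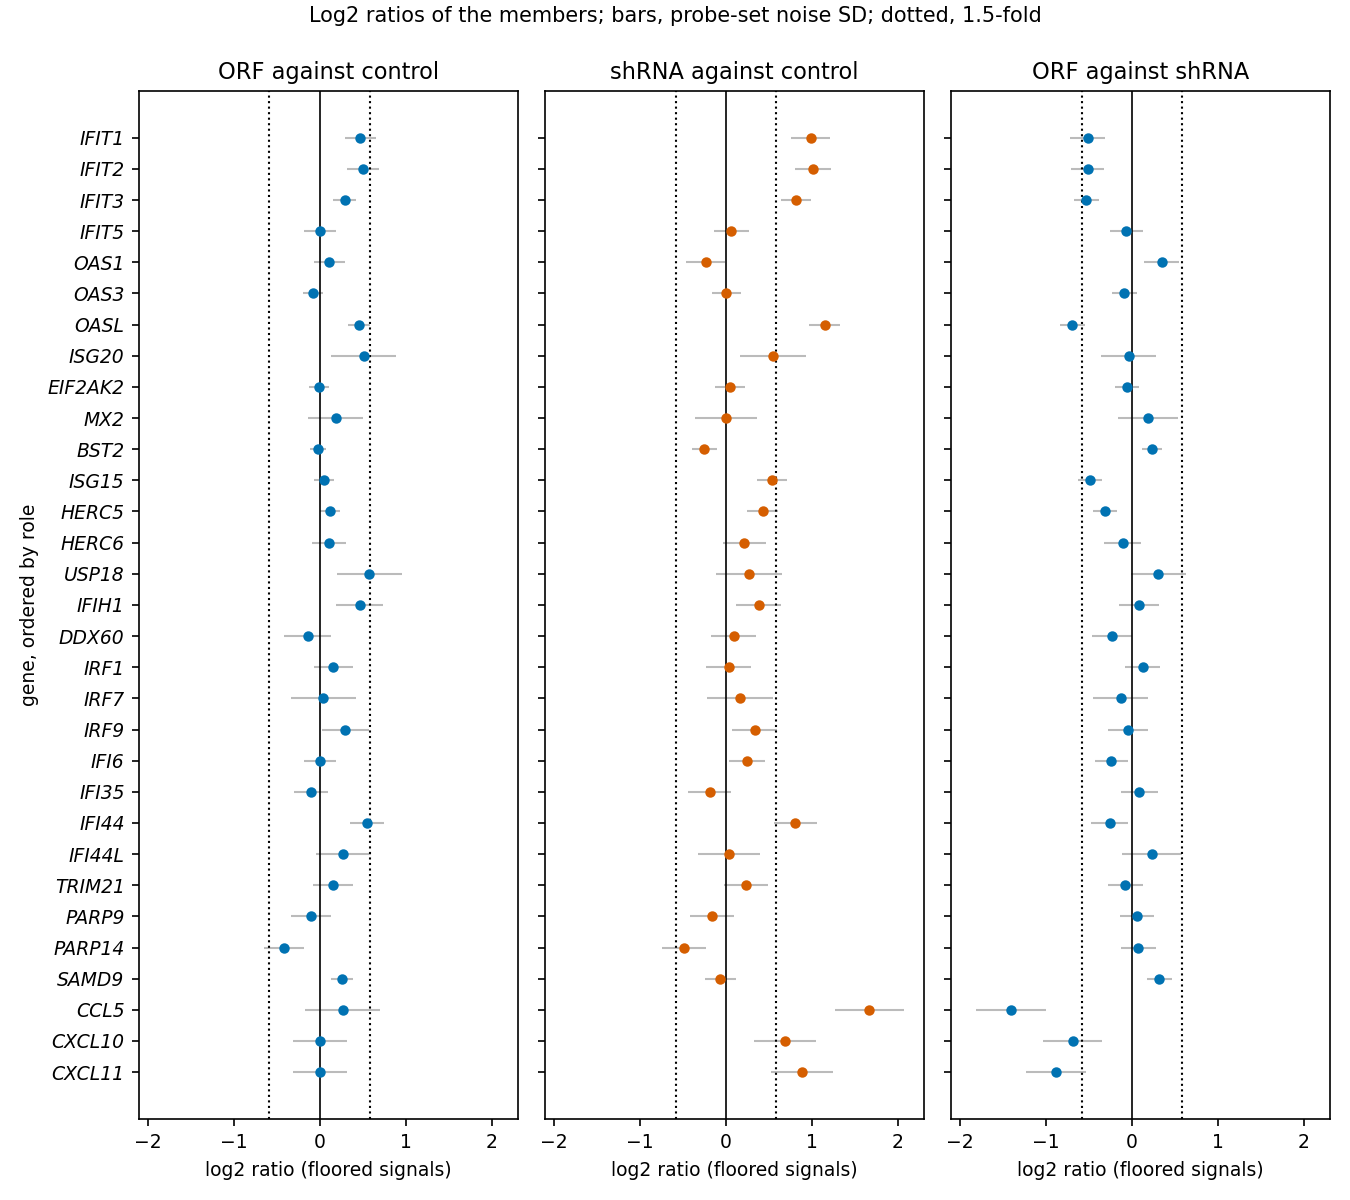
Log2 ratios of floored signals (x axis) for the 31 members (y axis, ordered by role) in the 3 comparisons. Points are single array-to-array ratios, bars are the probe-set noise SD, and dotted lines mark 1.5-fold in each direction. In shRNA against control 8 points lie past the right line, and in ORF against control none does.

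Technical noise was gauged across all genes from 2877 pairs of similarly bright probe sets that share a gene, which gave a noise SD of the log2 ratio for each range of signal. It ranged from 0.072 for the brightest to 0.440 for dim probe sets, and it leaves out all variation between cultures. Like the ratios, it was taken from floored signals, so differences below the floor count as 0. This can lower the SD in the dimmest range, which holds CXCL10 and CXCL11. For shRNA against control it was 0.361 there, beside 0.402 in the next range.

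The IFIT genes encode RNA-binding proteins that block the translation or replication of viral RNA, and lie close together on chromosome 10. IFIT1, which binds RNA without the host's cap methylation, read 9.32 on ORF, 9.83 on shRNA and 8.85 on control. IFIT2, its partner, read 9.41, 9.92 and 8.91. IFIT3, which stabilises IFIT1, read 10.70, 11.23 and 10.41. For all 3 the order was shRNA, then ORF, then control in the probe set used. The further IFIT3 probe set instead read slightly higher on ORF than on shRNA, with 8.81, 8.75 and 8.49. Relative to control the shRNA array was 1.98-fold higher for IFIT1 (log2 ratio 0.99, noise SD 0.227), 2.02-fold for IFIT2 (1.01, noise SD 0.209) and 1.76-fold for IFIT3 (0.82, noise SD 0.178). The ORF array stood between, with log2 ratios to control of 0.47 for IFIT1 (noise SD 0.180), 0.50 for IFIT2 (noise SD 0.186) and 0.29 for IFIT3 (noise SD 0.129). IFIT5, the remaining IFIT gene of the list, read 9.53, 9.60 and 9.53, also highest on shRNA, but its ratios were smaller than their noise. The log2 ratio to control on shRNA was 0.07, beside a noise SD of 0.209.

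The products of the OAS genes sense double-stranded RNA. OASL, which lacks the enzyme activity of the others, read 10.23 on ORF, 10.93 on shRNA and 9.78 on control. Its shRNA signal was 2.22-fold that of control (log2 ratio 1.15, noise SD 0.177) and its ORF signal 1.37-fold (0.46, noise SD 0.125). OASL was also lower on ORF than on shRNA, by a log2 ratio of −0.69 (noise SD 0.144). OAS1, which makes the oligoadenylate that activates RNase L, read 9.27, 8.92 and 9.16, so its lowest value was on shRNA. OAS3, a larger enzyme of the same kind, read 10.85, 10.94 and 10.93. EIF2AK2 (PKR, a kinase that stops translation on contact with double-stranded RNA) read 11.47, 11.52 and 11.48. Neither OAS3 nor EIF2AK2 had a ratio larger than its noise SD in any comparison. ISG20, an exonuclease, read 7.70, 7.73 and 7.19 and so was higher on both Hsp27 vector arrays than on control, with log2 ratios of 0.51 for ORF (noise SD 0.378) and 0.55 for shRNA (noise SD 0.383).

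The ISG15 system attaches a ubiquitin-like protein to other proteins. ISG15 itself read 11.20 on ORF, 11.68 on shRNA and 11.15 on control, so that ORF and control were close and shRNA was above both. Its log2 ratio for shRNA against control was 0.53 (noise SD 0.175), just under the 1.5-fold line, and for ORF against control it was 0.05 (noise SD 0.119). HERC5, the ligase that conjugates ISG15, had the same order at a smaller size, with 11.32, 11.63 and 11.21 and a log2 ratio of 0.43 (noise SD 0.175) for shRNA. HERC6, its neighbour on chromosome 4, read 8.96, 9.06 and 8.85, differences within its noise SD. USP18, the protease that removes ISG15 and damps interferon receptor signalling, differed in its order. It read 7.72, 7.42 and 7.15, highest on ORF, with a log2 ratio of 0.58 for ORF (noise SD 0.378) and 0.27 for shRNA (noise SD 0.383).

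The chemokines of the list attract T cells and other leukocytes, and CXCL10 and CXCL11 share the receptor CXCR3. All 3 were dim, and their control signals were below the floor, so their folds against control are lower bounds set by the floor. CCL5 read 6.19 on ORF, 7.59 on shRNA and 5.65 on control. It was at least 3.18-fold higher on shRNA than on control (log2 ratio 1.67, noise SD 0.402) and 2.64-fold higher than on ORF. CXCL10 read 5.64, 6.62 and 5.21, and CXCL11 read 5.69, 6.81 and 5.14, so that only the shRNA array exceeded the floor for both. They were at least 1.61-fold and at least 1.85-fold higher there than on control (log2 ratios 0.69 and 0.89, noise SD 0.361 each). The same lower bounds hold against ORF. Of the marker lists above, the summed signals of the endothelial and the fibroblast and stellate cell markers were highest on shRNA and that of the leukocyte markers was highest on ORF. Single markers varied. LUM, the brightest of the fibroblast and stellate list, and COL1A1 were highest on shRNA, while DCN was lowest there (9.67, 9.23 and 10.14). Among the endothelial markers VWF, KDR and TEK were below the floor on every array, PECAM1 was highest on ORF and CDH5 on control. The part of these marker signals in the chemokine values was not tested.

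Among the IFI genes, IFI44 (a cytoplasmic protein of the response) read 8.89 on ORF, 9.15 on shRNA and 8.34 on control. Its log2 ratio to control was 0.81 on shRNA (noise SD 0.250) and 0.55 on ORF (noise SD 0.201). IFI44L, its neighbour on chromosome 1, was barely above the floor at 6.31, 6.08 and 6.04, with no ratio larger than its noise SD. IFI6, an inhibitor of apoptosis, read 9.45, 9.69 and 9.44, a log2 ratio of 0.24 for shRNA (noise SD 0.209). IFI35 read 8.83, 8.74 and 8.93 and was within its noise SD.

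No sensor or transcription factor among the members passed 1.5-fold. IFIH1 (MDA5, a sensor of long double-stranded RNA) read 8.64 on ORF, 8.56 on shRNA and 8.17 on control, with log2 ratios to control of 0.47 (noise SD 0.273) and 0.38 (noise SD 0.260). DDX60, a helicase linked to RNA sensing, read 8.19, 8.43 and 8.33. IRF9, the DNA-binding part of the STAT complex, read 8.31, 8.36 and 8.02, with log2 ratios of 0.29 and 0.34 (noise SD 0.273 and 0.260). IRF1 and IRF7, which activate interferon and its target genes, had ratios to control between 0.03 and 0.17, all within their noise SD.

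Some members had their highest signal on control. PARP14, an ADP-ribosyltransferase, read 8.46 on ORF, 8.38 on shRNA and 8.87 on control, with log2 ratios of −0.41 (noise SD 0.232) and −0.49 (noise SD 0.259), the lowest among the members in both comparisons. BST2 (tetherin, which holds budding viruses at the cell surface) read 12.40, 12.17 and 12.42, and was lower on shRNA by a log2 ratio of −0.25 (noise SD 0.146). PARP9 read 8.67, 8.61 and 8.77, within its noise SD. SAMD9, a restriction factor of poxviruses, was instead highest on ORF, with 10.86, 10.54 and 10.61 (log2 ratio 0.26 for ORF, noise SD 0.129). Its further probe set was highest on shRNA, with 8.38, 8.47 and 8.39 (log2 ratio −0.01 for ORF). TRIM21, an intracellular antibody receptor, read 8.60, 8.67 and 8.44, within its noise SD. MX2, a GTPase that acts on HIV, exceeded the floor on ORF alone, with 6.11, 5.73 and 5.01.

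Further probe sets of the same genes gave repeat readings of the same RNA. In 14 members, 16 further probe sets were above the floor. For shRNA against control 10 of them had the sign of the probe set used and 6 the opposite sign, and the median gap between the readings was 0.32. The opposite signs were in IFIT5, OAS1, EIF2AK2, PARP9 and SAMD9, where no reading reached 1.5-fold. Of the 8 members past 1.5-fold, IFIT1 and CXCL10 had no further probe set. OASL (0.72 beside 1.15), CXCL11 (0.63 beside 0.89) and CCL5 (0.91 and 0.22 beside 1.67) had further readings higher on shRNA. So did IFIT2 (0.38 beside 1.01) and IFIT3 (0.25 beside 0.82). The further readings of IFIT2 and IFIT3 were under 1.5-fold. So was the lower one of CCL5, whose control signal of 3.14 was below the floor. The gap was wide for IFI44, whose further probe set read 5.66, 6.16 and 6.10, a log2 ratio of 0.06 beside 0.81. For ORF against control that probe set gave −0.18 beside 0.55. For ISG20 the further probe set gave larger differences than the one used, 0.98 for ORF and 0.89 for shRNA. For ORF against control 9 further probe sets had the same sign, 5 the opposite sign and 2 were at 0. For ORF against shRNA the counts were 9 and 7.

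**Figure D3:**
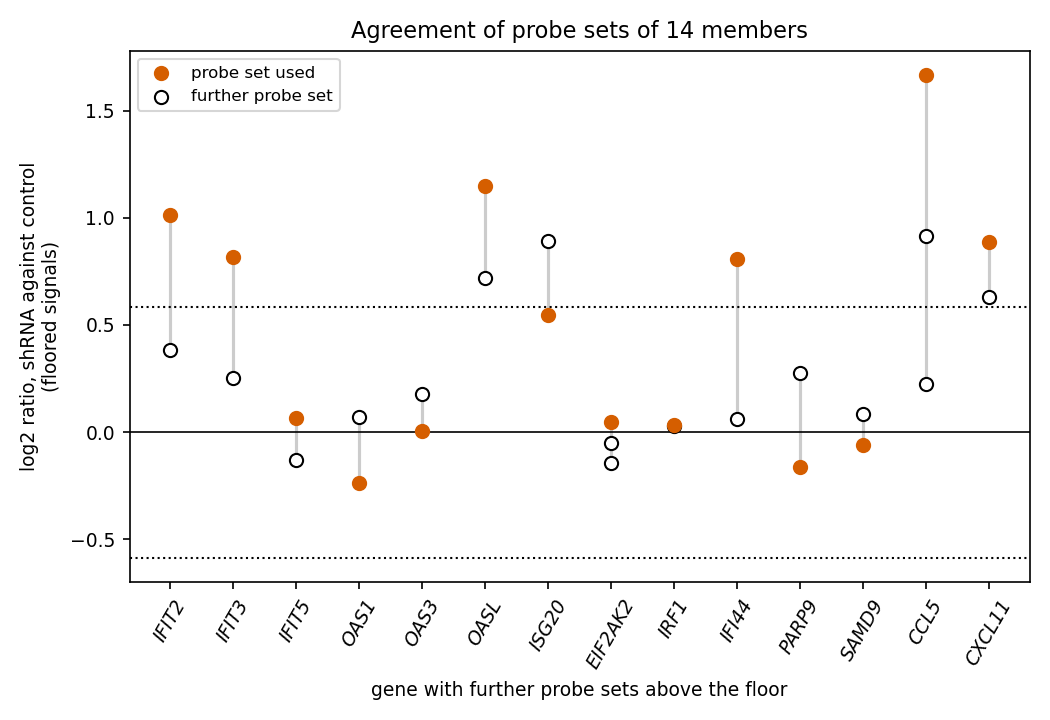
Log2 ratio of shRNA against control (y axis, floored signals) for each probe set above the floor in the 14 members with more than 1 such probe set (x axis). Filled points are the probe sets used, open points the further ones, and dotted lines mark 1.5-fold. OASL and CXCL11 have both points above the upper line, while the open points of IFIT2, IFIT3 and IFI44 and the lower open point of CCL5 lie below it.

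Position and promoter were set beside these values. By gene order in RefSeq, 19 of the 39 listed genes fall into 8 groups of near neighbours, such as IFIT1, IFIT2, IFIT3 and IFIT5, or CXCL10 and CXCL11. Neighbours did not always share a value in the probe sets used. OAS1 and OAS3 had log2 ratios of −0.24 (noise SD 0.227) and 0.01 for shRNA against control, and IFI44 and IFI44L had 0.81 and 0.04. Both contrasts rest on the probe sets used. The further probe set of OAS1 gave 0.07 and that of IFI44 gave 0.06. The response element was found in the windows of 18 of the 25 members above the floor that had one. Their median log2 ratio for shRNA against control was 0.24 (range −0.49 to 0.99), with 4 at least 1.5-fold higher. The other 7, without the motif in this window, had a median of 0.03 (range −0.24 to 0.89), with 1 higher, CXCL11. Of all genes above the floor, 3.59% were higher by as much. The ranges overlap, the difference between the groups was not tested, and CCL5, IFIT2 and OASL are in neither group.

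The other genes of the pathway were read from lists of ligands, receptors, sensors, regulators and further induced genes. The counts past 1.5-fold below stand beside 3.04% of all genes higher and 2.82% lower on ORF than on control, and 3.59% higher and 3.3% lower on shRNA. Of 18 measured interferon genes, 1 exceeded the floor, IFNA17, with 6.24 on ORF, 6.29 on shRNA and 5.81 on control; the interferon-alpha genes are near-identical copies, so this reading is uncertain. Of 9 receptor and JAK genes above the floor, 0 were at least 1.5-fold higher and 2 lower on shRNA than on control, JAK2 (log2 ratio −0.74, noise SD 0.414) and IFNAR1, while 0 passed 1.5-fold on ORF. A further JAK2 probe set was also lower on both arrays, with −0.63 for ORF, past 1.5-fold, and −0.33 for shRNA. IFNAR1, a chain of the type I receptor, read 8.38, 8.19 and 8.90 (log2 ratios −0.52 and −0.71, noise SD 0.232 and 0.259). Its further probe sets gave −0.32 and 0.10 for shRNA and 0.12 and −0.39 for ORF, so its readings disagreed in sign. IFNAR2, the other chain, had log2 ratios of 0.27 for ORF and 0.29 for shRNA against control. Its further probe sets gave 0.52 and 0.32 for ORF and 0.62 and −0.25 for shRNA, so on shRNA 1 reading passed 1.5-fold and another had the opposite sign. TYK2 had −0.11 for ORF and −0.51 for shRNA. JAK1 had −0.14 and 0.05, and its further probe sets, at 0.26 and −0.32 for ORF and 0.18 and −0.35 for shRNA, lay on both sides of 0.

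Of 10 sensing genes above the floor, 1 was at least 1.5-fold higher on shRNA and 0 lower, and 0 passed 1.5-fold on ORF against control. That gene was RIGI, a sensor of viral RNA that interferon also induces. RIGI read 8.29 on ORF, 8.37 on shRNA and 7.72 on control (log2 ratios 0.57 and 0.65, noise SD 0.258 and 0.322), but 2 further probe sets gave 0.10 each for shRNA. TICAM1, the adaptor of TLR3, had a log2 ratio of −0.49 for shRNA against control and was the 1 gene of this list at least 1.5-fold higher on ORF than on shRNA (0.60), where 2.64% of all genes were. STING1, the adaptor of DNA sensing, had 0.38 for ORF and 0.09 for shRNA, but −0.001 and −0.12 in its further probe set. TLR3, a sensor of double-stranded RNA, had −0.08 and −0.36, but −0.03 and 0.40 in its further probe set. None of 8 negative regulators passed 1.5-fold against control in either comparison. SOCS1 and SOCS3, inhibitors of JAK signalling, had log2 ratios of 0.50 and 0.38 for ORF and 0.39 and 0.12 for shRNA. The further SOCS1 probe set gave 0.02 for ORF and −0.20 for shRNA. Of the further SOCS3 probe sets, 2 were higher than control (0.54 and 0.42 for ORF, 0.29 and 0.53 for shRNA), while another exceeded the floor on control alone and was past 1.5-fold lower on both arrays, at −0.65 each. PTPN6 had −0.22 and −0.36, and IRF2 had 0.26 and 0.08.

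Among 44 further interferon-induced genes above the floor, 3 were at least 1.5-fold higher on ORF and 0 lower, and on shRNA 4 were higher and 1 lower. The shares of all genes were 3.04% and 2.82% on ORF and 3.59% and 3.3% on shRNA. The medians of the 44 were 0.04 for ORF and 0.003 for shRNA, near those of all genes, while those of the members were 0.12 and 0.23. The difference between the lists was not tested. GBP2, a guanylate-binding GTPase, read 7.66 on ORF, 6.95 on shRNA and 6.31 on control (log2 ratios 1.35 and 0.64, noise SD 0.432 and 0.414). LGALS9 (galectin 9) exceeded the floor on ORF alone, with 7.27, 5.80 and 5.86. CXCL16, a membrane-bound chemokine, read 8.64, 8.73 and 7.69, with log2 ratios of 0.95 and 1.04 (noise SD 0.273 and 0.260). SP100, a nuclear body protein, read 9.50, 9.94 and 8.94 (log2 ratios 0.56 and 1.003, noise SD 0.186 and 0.209). Its 4 further probe sets above the floor gave 0.53, 0.16, −0.004 and −0.094 for shRNA, so the size rests on the probe set used. Beyond the rule for named genes, and chosen after their values were seen, GBP1 (0.77, noise SD 0.177; 0.37 and 0.59 in its further probe sets) was the remaining gene higher on shRNA and CMTR1, a cap methyltransferase (−0.79, noise SD 0.219), the gene lower there.

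**Figure D4:**
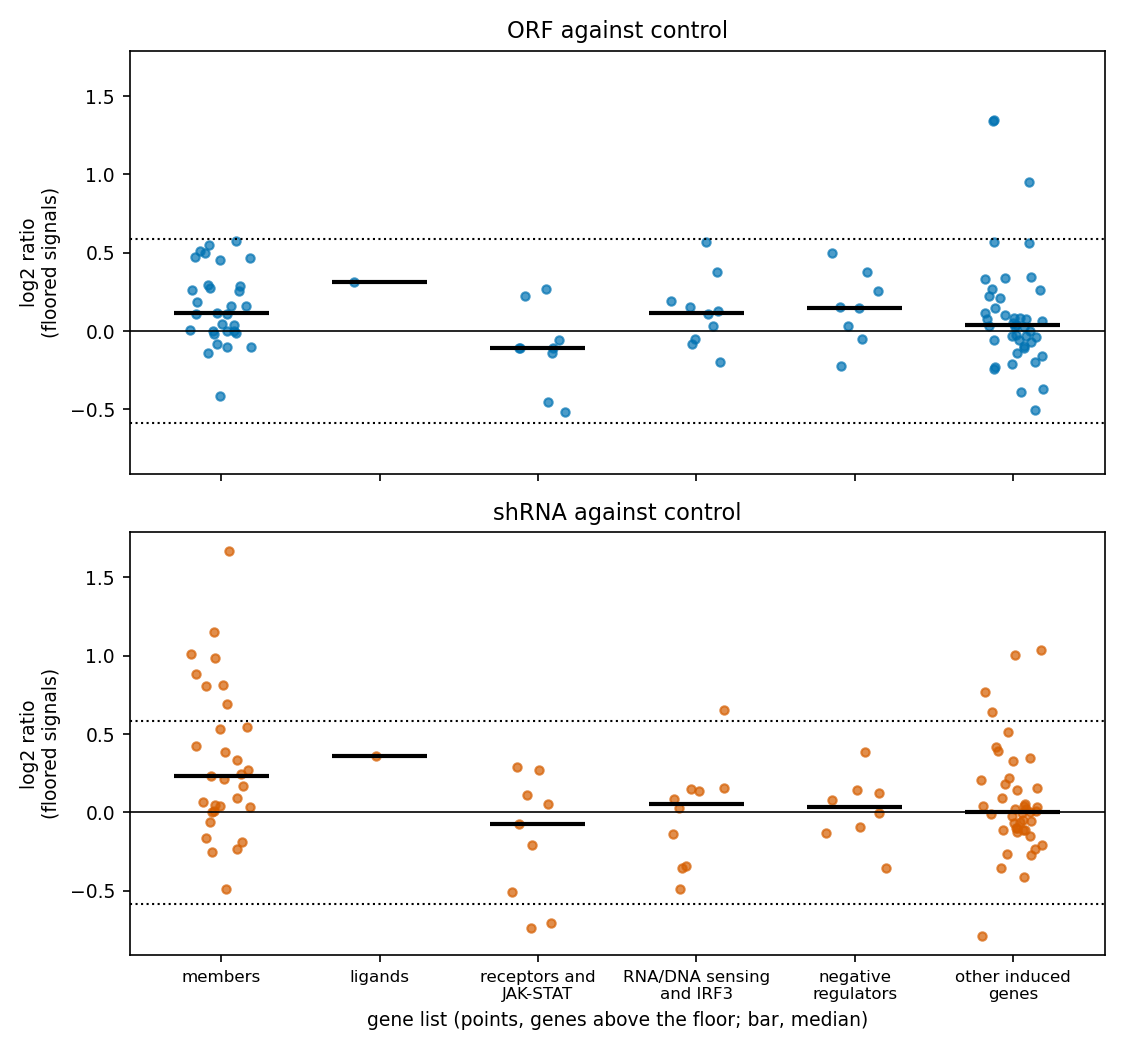
Log2 ratios to control (y axis, floored signals) of the 31 members and of the genes above the floor in 5 other lists of the interferon pathway (x axis), for ORF (top) and shRNA (bottom). Points are genes, black bars are medians and dotted lines mark 1.5-fold. The members' bar is at 0.23 in the lower panel and at 0.12 in the upper, and that of the 44 other induced genes is near 0 in both.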

How the data were processed

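Total RNA from 3 cultures was measured on 3 biotin-label expression arrays, 1 per group. The authors deposited log2 signals for 54675 probe sets, made with MAS5 per the submitters' processing notes. No source states its version, its scaling target or its detection calls. That values are log2 was inferred: made linear, they have a 2% trimmed mean of 500.1, averaged over the 3 arrays.

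Gene symbols came from GEO's annotation of the platform: 41097 had 1 symbol, 1801 several and 11777 none, and only the first were used. Arrays were scaled to equal trimmed means. A member had to exceed the floor on at least 1 array to be counted. The noise SD came from the 2 brightest probe sets above the floor of each gene, where their mean log2 signals lay within 1 of each other, in 20 bins. The procedure (Python 3.11.15, pandas 2.3.3, scipy 1.17.1) was tested on simulated data for shRNA against control over 19775 genes. Of 50 genes made 1.5-fold higher, 22 reached 1.5-fold, and of 50 each made 2-fold, 3-fold and 4-fold higher, 50 each did. All these genes had a mean log2 signal at or above the 75th percentile, 8.63. The simulated noise was the noise SD of ORF against control. Recovery of dimmer genes, such as the chemokines, was not tested.

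Every listed member is named, with values where it exceeded the floor. Of each other pathway list up to 4 genes with the largest ratio to control are named, plus the type I receptor chains and JAK1. Members, lists and alternatives were chosen with earlier results of these data known. No p-value is given, since there are no replicates.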

Additional observations from a re-analysis of the deposited data

How the results depend on the processing

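Quantile normalization, loess centring, equal medians above the floor, raising the floor to the 75th percentile, dropping it, taking the median over probe sets and leaving out probe sets ending in _x_at or _s_at were tried for each count and median. The 3 medians kept their direction under all 7, at 0.044 to 0.16 for ORF against control, 0.045 to 0.27 for shRNA against control and −0.14 to −0.063 for ORF against shRNA. The count of 8 members higher on shRNA than on control ranged from 4 to 9, and the share of all genes from 1.33% to 5.91%. The count was 4, with a median of 0.045, with the floor at the 75th percentile (8.63 on the log2 scale), where 1.33% of all genes were higher. That floor leaves 21 members and removes the chemokines. The 4 members lower on ORF than on shRNA became 1 there, OASL, where 0.685% of all genes were lower. At a 2-fold threshold the counts were 3 and 1, and the share of all genes was not computed. For ORF against control 1 member, MX2, passed 1.5-fold without a floor, where 4.95% of all genes were higher. With the median over probe sets 1 member, ISG20, did, where 1.74% of all genes were higher. IFIT3 fell short of 1.5-fold with the median over probe sets, and IFI44 did so there, with the 75th percentile floor and without _x_at and _s_at probe sets, at 0.06 in the last. IFIT1, IFIT2 and OASL stayed past 1.5-fold for shRNA against control under all 7. Of 606 further values of single members, 578 moved by less than the noise SD and 28 by more. Signal over background limits CCL5, CXCL10, CXCL11 and MX2, and 1 array per group limits all values. No paired analysis was possible because each group has 1 array.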

Other observations

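A probe set annotated to both RNF31 and IRF9, which no comparison above uses, read 7.83 on the array labelled ORF, 8.04 on shRNA and 7.59 on control. Its log2 ratios to control were 0.25 and 0.45, beside 0.29 and 0.34 for the probe set of IRF9 alone.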
